A study of Carassius gibelio with 4 samples.

Results

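Among 56011 gene IDs measured in the liver of gibel carp (Carassius gibelio), 44 stood at least 2-fold higher on a rapeseed meal diet than on a fishmeal diet in strain A and differed by less than 2-fold between the same diets in strain F. They were taken from the 774 IDs whose mean over all libraries lay between 100 and 1000, of which 763 were above 0 in the strain F fishmeal library, as the choice required. The values of all 4 libraries were therefore used to choose these IDs, and the differences between diets given below describe the choice and carry no test. The question followed here is where strain F stood: at the level that strain A reached on rapeseed, or at the level that strain A had on fishmeal.

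The 4 libraries were strain F on the rapeseed meal diet, strain F on the fishmeal diet, strain A on the rapeseed meal diet and strain A on the fishmeal diet. Each came from liver sampled 8 hours after the last feeding, and each combination was represented by 1 library, so no difference has a replicate check and no p-value is given. The labels used here give neither the number of fish in a library nor their age. No file header names the unit. The deposited values have the properties of FPKM, that is fragments scaled by transcript length and library size, times a multiplier per library. They are called FPKM here, and differences are of log2(FPKM + 1).

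In fish the liver handles amino acids, lipids and carbohydrates from the diet, makes most plasma proteins and bile acids, and detoxifies foreign compounds. Rapeseed meal is a plant protein source used in place of fishmeal in feeds for cyprinids. It differs from fishmeal in its amino acid balance and carries fibre, phytate, phenolic compounds and glucosinolates. Gibel carp is polyploid, so near-identical gene copies are common, and their reads may be divided between IDs. No file pairs the IDs with names of genes, and a search of the RefSeq gene table for assembly carGib1.2-hapl.c returned 0 matches. Neither liver markers nor the function of any ID could be looked at, and each ID is described by its levels.

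Depth differed between libraries. The strain F fishmeal library had 19015 IDs above 0, against 44906 to 47839 in the others. The deposited values also carried 1 multiplier per library, read from the steps between low values. It was 1.07 for strain F on rapeseed, 0.705 for strain F on fishmeal, 1.34 for strain A on rapeseed and 0.993 for strain A on fishmeal. These multipliers add 0.60 to a log2 difference of rapeseed over fishmeal in strain F and 0.43 in strain A. To a log2 difference of strain F over strain A they add -0.32 on rapeseed and -0.49 on fishmeal. Results that turn on the scale are therefore given on the deposited scale, with the multipliers divided out, and with each library centred on its median log2 level over the 763 IDs. In that centring the class medians were 7.80 for strain F on rapeseed, 7.18 for strain F on fishmeal, 7.92 for strain A on rapeseed and 7.57 for strain A on fishmeal.

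In strain A, 107 of the 763 IDs (14.0%) stood at least 2-fold higher on rapeseed, and the 44 IDs are part of these by choice. Strain F also stood at least 2-fold higher on rapeseed in 54 of the 107 and at least 2-fold lower in 9, against 25.6% and 3.15% of the 763 IDs. A further 6 IDs were 2-fold higher in strain A and are listed at 0 in strain F on fishmeal. All 6 stood at least 2-fold higher on rapeseed in strain F, so the limit in strain F left them out as well. On the deposited scale the remaining 44 of the 107 had a median log2 difference of 1.45 between the diets in strain A, with a range of 1.0 to 4.75. It was 2 or more in 12 IDs and under 1.5 in 24. With the multipliers divided out the median was 1.03 and the lowest value 0.58, and 22 of the 44 were under 2-fold in strain A. After centring the median of the 44 IDs was 1.11 and the lowest value 0.66. Their levels in strain F on rapeseed ran from 45.1 to 1241 FPKM with a median of 277. In strain F on fishmeal they ran from 41.0 to 1128 FPKM with a median of 172. Strain A on rapeseed ranged from 15.1 to 1827 FPKM around a median of 403, and strain A on fishmeal from 0.298 to 655 FPKM around a median of 124.

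IDs lay close on either side of most limits. The smallest log2 difference in strain A among the 44 IDs was 1.0 (207 FPKM on rapeseed and 103 on fishmeal), and the largest just outside was 0.98 (613 and 309 FPKM). In strain F the largest log2 difference inside was 0.99 (346 FPKM on rapeseed and 173 on fishmeal) and the smallest outside was 1.01 (360 and 178 FPKM). On the deposited scale the lower limit in strain F had no ID near it. The most negative difference inside was -0.54 and the nearest outside was -1.76. The lowest mean level inside was 111 FPKM, against 97.9 for the nearest ID outside, and the highest inside was 959 FPKM, against 1040 for the nearest outside.

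The 44 IDs were not flat in strain F on the deposited scale. Strain F stood higher on rapeseed than on fishmeal in 42 of the 44, by a median log2 difference of 0.66, and 28 had a difference of 0.5 or more. The same median over the 763 IDs was 0.67. With the multipliers divided out the median of the 44 IDs was 0.06, and strain F stood lower on rapeseed in 18 of them. After centring it was 0.03, with 20 lower. The size of the diet difference in strain F, and its direction in some IDs, thus depended on the scale. A response in strain A alone means here a difference under 2-fold in strain F.

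To place strain F, the midpoint between the strain A libraries was taken for each ID on the log2 scale. On the deposited scale, strain F lay above this midpoint on both diets in 12 IDs and below it on both diets in 18. In the other 14 the midpoint fell between the strain F libraries. With 0 set at strain A on fishmeal and 1 at strain A on rapeseed, the median position was 0.57 for strain F on rapeseed and 0.14 for strain F on fishmeal. On rapeseed strain F stood at or above the strain A rapeseed level in 10 IDs, between the strain A levels in 30 and at or below the strain A fishmeal level in 4. On fishmeal the corresponding numbers were 2, 25 and 17. Strain F thus did not take a single place: some IDs stood high on both diets, others low on both.

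**Figure D1:**
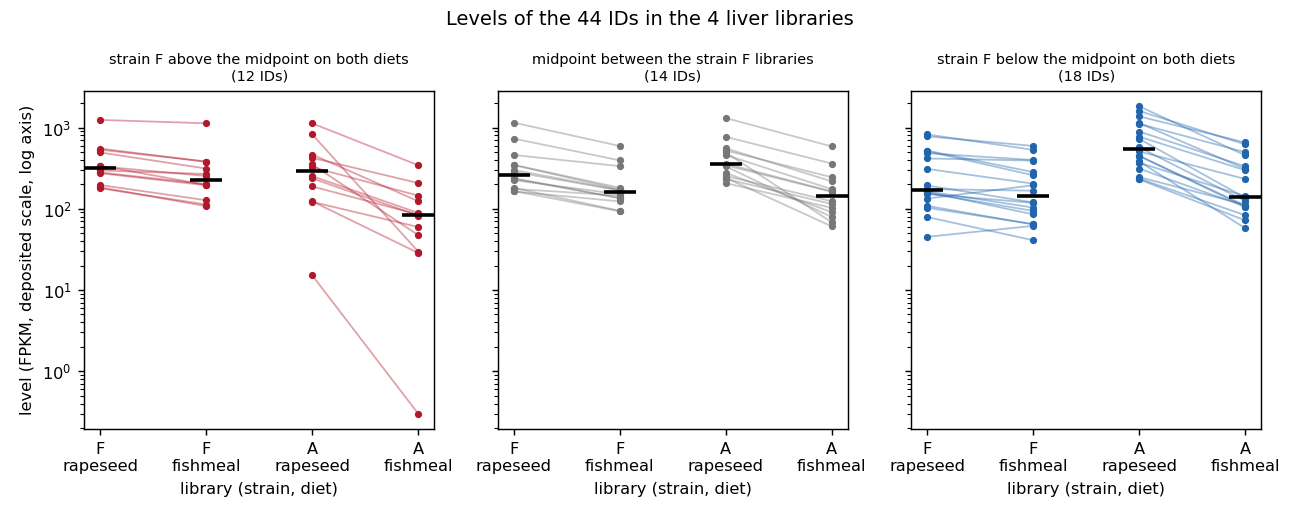
Levels in FPKM on a log axis of the 44 IDs in the 4 libraries, split by where strain F lay relative to the midpoint of the strain A libraries. Each dot is an ID in 1 library, lines join the diets of a strain and black bars are medians; in the 12 IDs at left the strain F medians are 314 and 227 FPKM, and in the 18 at right 169 and 143 FPKM.

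Of the 44 IDs, 18 changed class between scales, and these are not the 18 that lay below on the deposited scale. After division by the multipliers, strain F lay above the midpoint on both diets in 24 of the 44 IDs and below it in 13. After centring the numbers were 21 and 19. On all 3 scales 12 IDs stayed above, 13 stayed below and 1 stayed between. Dividing by the multipliers raised both strain F libraries against the midpoint. Centring raised strain F on fishmeal and lowered strain F on rapeseed only slightly. That the 12 stayed above was thus nearly fixed beforehand, whereas IDs below the midpoint could leave that class.

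**Figure D2:**
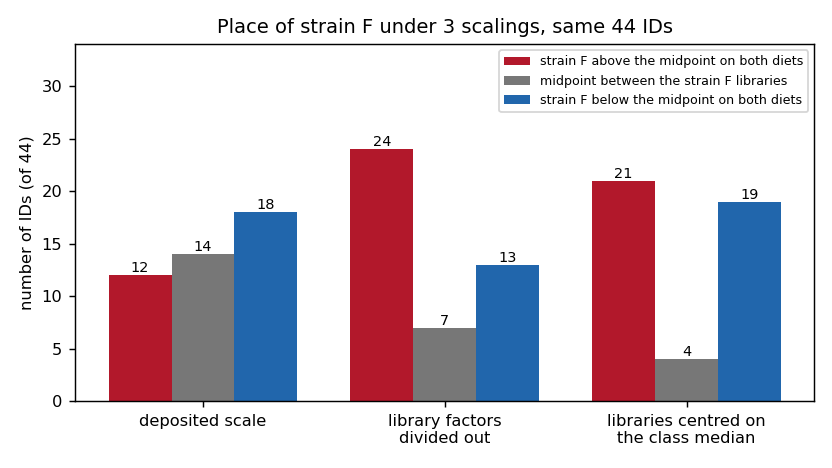
Number of the same 44 IDs with strain F above the midpoint of strain A on both diets, with the midpoint between its libraries, or below it on both diets, on 3 scales. The IDs above number 12, 24 and 21, and those below 18, 13 and 19.

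The share of each library's summed level does not depend on its multiplier. The 44 IDs together held 1.18% of the strain F rapeseed library and 1.16% of the strain F fishmeal library, against 1.45% of strain A on rapeseed and 0.675% of strain A on fishmeal. By this measure strain F hardly differed between diets and lay between the strain A values. The choice of IDs sets much of this. It requires strain A to be higher on rapeseed and bounds the diet difference in strain F. The 12 IDs that stayed above held 0.380% and 0.410% in strain F on the rapeseed and fishmeal diets, more than the 0.269% and 0.102% in strain A on the same diets. The 13 IDs that stayed below held 0.269% and 0.261% in strain F, close to the 0.254% of strain A on fishmeal, while strain A on rapeseed held 0.583%. The 12 and 13 IDs were grouped by where strain F lay, so these shares largely restate the grouping. Of the 12, 3 reached the level limit through strain F, and of the 13, 4 reached it through strain A. A share also moves with every other ID in the library and has no error estimate here.

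In the 12 IDs that stood high on both diets, the median level was 314 FPKM in strain F on rapeseed and 227 on fishmeal, against 289 FPKM in strain A on rapeseed and 83.6 on fishmeal. Strain A on fishmeal was the lowest library in each of them, as the grouping requires. The log2 difference of strain F over strain A had a median of 0.15 on rapeseed (range -0.65 to 5.05) and of 1.2 on fishmeal (range 0.58 to 8.20). On fishmeal strain F exceeded strain A by 2-fold or more in 8 of the 12, against 6.29% of the 763 IDs. The grouping requires strain F to be above strain A on fishmeal in all 12, so this count partly restates it. The ID with the highest mean of the 44, c37840_g3, is an example of the 12. It stood at 1241 FPKM in strain F on rapeseed and 1128 on fishmeal, against 1125 FPKM in strain A on rapeseed and 343 on fishmeal. On the deposited scale strain F on fishmeal was level with strain A on rapeseed, with a log2 difference of 0.0044. It was 0.93 above it with the multipliers divided out and 0.75 after centring. The ID c33597_g2 had 184 and 108 FPKM in strain F on the rapeseed and fishmeal diets, against 123 and 28.5 FPKM in strain A.

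With the pseudocount of 1, the largest diet difference in strain A was that of c32259_g5, with a log2 difference of 4.75. It stood at 552 FPKM in strain F on rapeseed and 379 on fishmeal, against 821 FPKM in strain A on rapeseed and 29.6 on fishmeal. In strain A the fold of rapeseed over fishmeal was 27.8, and strain F on fishmeal was 12.8 times strain A on the same diet. On rapeseed strain F was lower than strain A by a log2 difference of -0.57, under 2-fold. Next was c26622_g1, whose level was far higher in strain F. It stood at 533 FPKM in strain F on rapeseed and 382 on fishmeal, against 15.1 FPKM in strain A on rapeseed and 0.298 on fishmeal. Its mean reached 100 through strain F, and on rapeseed strain F was 35.3 times strain A. For this ID strain F stood far above either strain A level, and its log2 difference of 3.63 in strain A depends on the pseudocount. The fold of its levels in strain A was 50.7, and with a pseudocount of 0.1 its log2 difference of 5.26 exceeds the 4.79 of c32259_g5. In 3 of the 44 IDs, c26622_g1 and c33597_g2 among them, the mean of the strain A libraries was under 100 FPKM, so they reached the level limit through strain F. All 3 are among the 12 that stood high, and without them 9 IDs lay above the midpoint and 18 below. In 4 other IDs the mean of the strain F libraries was under 100 FPKM. These 4, c22075_g1, c23164_g1, c33921_g1 and c36042_g1, reached the level limit through strain A. They lay below the midpoint on all 3 scales and are still counted in the 18.

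**Figure D3:**
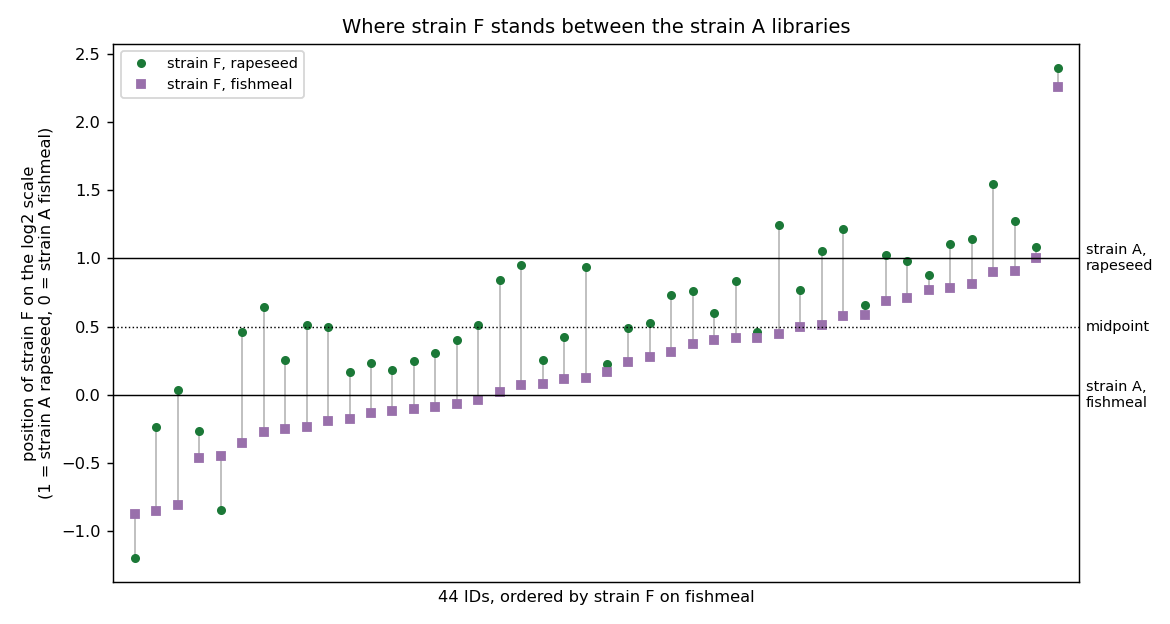
Position of strain F for each of the 44 IDs, with 1 at the strain A rapeseed level and 0 at the strain A fishmeal level on the log2 scale; circles are strain F on rapeseed and squares strain F on fishmeal. Medians are 0.57 on rapeseed and 0.14 on fishmeal, and 1 ID, c26622_g1, lies above 2 on both diets.

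In the 18 IDs that stood low on both diets on the deposited scale, strain A on rapeseed was the highest library, as the grouping requires. The median level was 169 FPKM in strain F on rapeseed and 143 on fishmeal, against 539 FPKM in strain A on rapeseed and 140 on fishmeal. The log2 difference of strain F over strain A had a median of -1.19 on rapeseed, with a range of -3.01 to -0.60. On fishmeal it had a median of -0.24, with a range of -1.20 to 0.65. On the deposited scale strain F was at least 2-fold lower on rapeseed in 15 of the 18, against 9.17% of the 763 IDs. These 15 include all 13 that stayed below on every scale. The grouping requires strain F to be lower than strain A on rapeseed in all 18, so the count of 15 partly restates it. It also depended on the scale. Over all 44 IDs, 16 were at least 2-fold lower on the deposited scale, 8 with the multipliers divided out and 14 after centring. With the multipliers divided out, the 13 thus did not all keep a 2-fold difference.

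The largest strain differences on rapeseed within this group were those of c23164_g1 and c35769_g1. The ID c23164_g1 stood at 45.1 FPKM in strain F on rapeseed and 61.5 on fishmeal, against 370 FPKM in strain A on rapeseed and 142 on fishmeal. The ID c35769_g1 had 134 and 195 FPKM in strain F on the rapeseed and fishmeal diets, against 772 and 298 FPKM in strain A. Both were lower on rapeseed than on fishmeal in strain F, as none of the other 42 IDs were on the deposited scale. Their log2 diet differences in strain F were -0.44 for c23164_g1 and -0.54 for c35769_g1. With the multipliers divided out these were -1.03 and -1.14, and after centring -1.07 and -1.17. On those 2 scales both IDs thus lay past the 2-fold limit in strain F. Strain F lay below the strain A fishmeal level on both diets in 4 of the 44 IDs, these among them. On fishmeal the lowest strain differences were -1.20 for c23164_g1 and -0.95 for c36604_g1. The ID c36604_g1 stood at 194 FPKM in strain F on rapeseed and 120 on fishmeal, against 507 FPKM in strain A on rapeseed and 232 on fishmeal. The ID c28729_g1 had 511 and 259 FPKM in strain F, against 1111 and 496 FPKM in strain A on the rapeseed and fishmeal diets. Its log2 diet difference in strain F, 0.98, lay just under the limit.

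The 14 IDs with the midpoint between the strain F libraries had medians of 261 FPKM in strain F on rapeseed and 160 on fishmeal, against 351 FPKM in strain A on rapeseed and 143 on fishmeal. Strain F differed between its diets by a median log2 difference of 0.81 here, somewhat under 2-fold on the deposited scale. The multipliers add 0.60 to this difference. The grouping also requires the strain F libraries to lie on either side of the midpoint, which favours larger differences. The ID c30269_g1 stood at 346 FPKM in strain F on rapeseed and 173 on fishmeal, against 359 FPKM in strain A on rapeseed and 163 on fishmeal. Its strain F and strain A values were nearly the same on either diet, and it was kept apart from the IDs higher in both strains only by the 2-fold limit. The ID c31789_g1, the second highest in mean level, had 1150 and 593 FPKM in strain F on the rapeseed and fishmeal diets, against 1309 and 585 FPKM in strain A. With the multipliers divided out, both lay above the midpoint on both diets. Their log2 diet differences were then 0.70 and 0.73 in strain A, and 0.39 and 0.35 in strain F.

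The strain differences of the 44 IDs were set beside those of the level class, first on the deposited scale. On rapeseed strain F stood below strain A in 34 of the 44 IDs, with a median log2 difference of -0.63, against -0.15 over the 763 IDs. It was at least 2-fold lower in 16 of the 44 (36.4%), against 9.17% of the class, and at least 2-fold higher in 1, against 5.64%. On fishmeal strain F stood above strain A in 27 of the 44, with a median of 0.23, against -0.50 over the class. At least 2-fold higher values were seen in 9 of the 44 (20.5%), against 6.29% of the class, and at least 2-fold lower values in 1, against 18.3%. The choice of IDs used the strain A libraries that stand in both differences and fixes that the difference on rapeseed is the lower of the pair, so these counts describe the choice in part. Without the multipliers the medians of the 44 IDs were -0.30 on rapeseed and 0.72 on fishmeal. Those of the level class, 767 IDs on that scale, were 0.17 and 0.01. Relative to the class, strain F was lower on rapeseed and higher on fishmeal on either scale. The choice of IDs favours these directions on both scales.

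**Figure D4:**
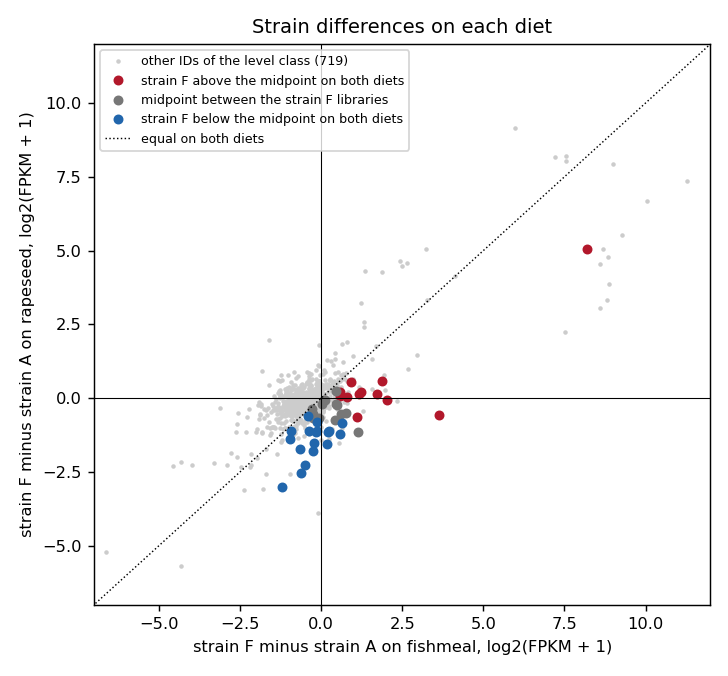
Log2 difference of strain F over strain A on rapeseed (vertical) and on fishmeal (horizontal) for the 44 IDs, coloured by the place of strain F, and for the other 719 IDs of the level class in grey. All 44 lie below the dotted line of equal differences, as the choice of IDs requires, and 17 of them lie above 0 on fishmeal and below 0 on rapeseed.

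The 54 IDs that passed the 2-fold limit on rapeseed in both strains had median log2 differences of strain F over strain A of -0.16 on rapeseed and -0.10 on fishmeal. The 140 IDs at least 2-fold higher on rapeseed in strain F and within 2-fold in strain A had medians of 0.02 and -0.95. With the multipliers divided out the medians were 0.16 and 0.39 for the 54 IDs and 0.34 and -0.46 for the 140, so the direction for the 54 depended on the scale. The groups are defined by non-overlapping limits on the same libraries, and whether they differ in place was not tested.

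Strain F on fishmeal was placed by the shallow library. Of the 44 IDs, 6 lay within 2-fold of strain A on rapeseed and not of strain A on fishmeal in that library. There were 25 within 2-fold of strain A on fishmeal alone, 9 within 2-fold of both and 4 of neither. With the multipliers divided out, 16 lay at the rapeseed level of strain A and 9 at its fishmeal level, and after centring 13 and 14. Among 354 other IDs of the class whose levels in the 3 deeper libraries lay within 1.5-fold of each other, this library stood at a median log2 difference of -0.70 from their mean, with an SD of 0.44. On the deposited scale 15 of the 44 IDs had a strain F fishmeal level within 1 such SD of the midpoint, 6 lay further above it and 23 further below, with no allowance for the shift of -0.70. Once the multipliers were divided out, that shift was -0.06 over 370 such IDs with an SD of 0.44, and 19 of the 44 IDs lay within it, 17 further above and 8 further below. The number of reads behind these values is not known. On rapeseed, where both libraries were deep, 26 IDs of strain F lay above the midpoint and 18 below on the deposited scale. These numbers also turn on the scale. The median position on rapeseed was 0.57, against 0.67 with the multipliers divided out and 0.54 after centring. Several IDs near the midpoint crossed it on rapeseed. After centring c36769_g3 fell below it (0.53 to 0.49), as did c32644_g1, c37198_g3 and c30845_g2. With the multipliers divided out c35937_g4 (0.49 to 0.54) and c31672_g3 (0.46 to 0.54) rose above it.

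The 44 IDs belonged to 41 assembly components, taken from the shared c number of the IDs. In 20 IDs (45.5%) the component had no other ID, against 49.4% of the level class. The components holding a pair of these IDs were c35937, c32130 and c36769, and c36769 was named after its values were seen. In c32130 both IDs stood low in strain F. The ID c32130_g2 had 164 FPKM in strain F on rapeseed and 103 on fishmeal, against 571 FPKM in strain A on rapeseed and 124 on fishmeal. The ID c32130_g1 had 152 and 118 FPKM in strain F, against 447 and 105 FPKM in strain A on the same diets. In c35937 the IDs differed more, with c35937_g4 at 310 and 204 FPKM in strain F on the rapeseed and fishmeal diets, against 726 and 137 FPKM in strain A. Its partner c35937_g1 had 235 and 135 FPKM in strain F, against 333 and 78.8 FPKM in strain A. With the multipliers divided out both IDs of c35937 lay above the midpoint on both diets.

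In c36769 the IDs took different places on the deposited scale and after centring. With the multipliers divided out both lay above the midpoint on both diets. The ID c36769_g2 stood high in strain F, at 274 FPKM on rapeseed and 195 on fishmeal, against 237 and 82.5 FPKM in strain A on the same diets. The ID c36769_g3 had 163 and 123 FPKM in strain F, against 276 and 90.4 FPKM in strain A. A strain F level over that of strain A on rapeseed was thus seen for 1 ID of the pair, and its log2 difference there, 0.21, was under 2-fold.

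The same components held 12 other IDs of mean level 10 or more. Of these, 2 (16.7%) stood at least 2-fold higher on rapeseed in strain F, against 20.6% of all IDs of that level outside the 44. In strain A 5 of the 12 (41.7%) did so, against 7.12%. Over the 763 IDs of the level class, which include the 44, it was 14.0%. The mean levels of the 12 ran from 19.9 to 5432 FPKM, so neither share is matched in level. The 5, named after their values were seen, were c32259_g3, c35492_g2, c35492_g5, c36769_g1 and c37198_g2. Once the multipliers were divided out, and after centring, 3 of the 5 were still at least 2-fold higher in strain A. The share of other IDs on those scales was not counted. Reads may be shared between IDs of a component, so these IDs are not independent of the 44. The most abundant was c32259_g3, with 5280 FPKM in strain F on rapeseed and 3569 on fishmeal, against 8733 FPKM in strain A on rapeseed and 4146 on fishmeal. Unlike c32259_g5 of the same component, it had no low level in strain A on fishmeal.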

How the data were processed

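For each library the authors deposited a table of gene IDs and values. Per the submitters' processing notes, Bowtie 1.0.1 and RSEM 1.2.17 were used, without stated roles; the aligned reference is not given in the sources read. Per the labels' protocols, RNA of frozen liver was extracted with Trizol and sequenced on standard Illumina libraries. No header names the unit; as deposited, the numbers have the properties of FPKM times 1 multiplier per library. Under 3 FPKM, 100% of the values used (up to 6000 per library) lay within 0.0006 of a whole multiple of 0.01 times the multiplier, against 8.98 to 17.0% by chance. With the multipliers divided out the sums were 1.21e+06 to 1.27e+06, so the values are not TPM. Absolute depth is unknown; the lowest value above 0 was then 0.370 in strain F on fishmeal and 0.0103 to 0.0202 in the others.

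Differences are of log2(FPKM + 1), which understates differences that involve low levels. With 1 library per group no test was run, and call means a 2-fold difference. The steps were tested on simulated data with known multipliers and places. The simulated libraries were equally deep and the places had no noise. The simulation thus checks the calculation and not the places taken from the shallow library. At most 2 higher and 2 lower IDs were named per comparison, by largest difference, besides the 2 highest in mean level and pairs within a component. The IDs and groups were chosen with earlier results of these data known. Python 3.11.15, numpy 2.4.6, pandas 2.3.3 and matplotlib 3.10.9 were used.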

Additional observations from a re-analysis of the deposited data

Results flagged for a closer look

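The following IDs had differences of opposite direction in the strains or on the diets, with 1 library behind each value. None of these differences was tested. For the 44 IDs the choice fixes the sign of the values below, each a log2 difference less another. It does not fix that the directions are opposite. For diet, the log2 difference of strain F less that of strain A was -1.81 for c23164_g1 and -1.91 for c35769_g1, which were lower on rapeseed in strain F and higher in strain A. It was -2.81 for c35492_g2, an ID outside the 44 with the same directions. For strain, the following IDs stood higher in strain F on fishmeal and lower on rapeseed on the deposited scale. The log2 difference of strain F over strain A on rapeseed less that on fishmeal was -4.21 for c32259_g5, -1.80 for c35937_g4, -1.72 for c32130_g1, -1.27 for c35937_g1 and -1.20 for c36769_g3. It was also -1.20 for c36769_g1 and -2.81 for c35492_g2, both outside the 44. For c31789_g1 (-0.21) and c30269_g1 (-0.14) the opposite signs came from differences near 0. With the multipliers divided out c31789_g1, c30269_g1, c36769_g1 and c35492_g2 stood higher in strain F on both diets.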

How the results depend on the processing

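Of 84 values recomputed under other settings, 47 stayed close (counts within 1.5 times, medians within 0.1) and 37 moved more. No median changed sign, but the order of counts did: with the multipliers divided out, IDs above the midpoint outnumbered those below (24 and 13, in place of 12 and 18). IDs at the rapeseed level of strain A outnumbered those at its fishmeal level (16 and 9, in place of 6 and 25). Values are given in the order IDs above the midpoint, IDs below it, IDs with strain F on fishmeal at the rapeseed level of strain A, IDs at its fishmeal level, and median log2 difference of strain F over strain A on rapeseed and on fishmeal. With the multipliers divided out and the limits applied again, 33 IDs were found, 22 of them among the 44. All 22 of the 44 no longer found were under 2-fold in strain A, and 2 of these also differed at least 2-fold in strain F. The values of the 33 IDs were 21, 10, 16, 5, -0.33 and 1.06. For the same 44 IDs the medians were -0.30 and 0.72. Centring, a setting added after seeing the data, gave 21, 19, 13, 14, -0.51 and 0.63 for the same IDs. With the limits applied again it gave 42 IDs (26 shared) and 18, 16, 14, 14, -0.55 and 0.73.

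A 1.5-fold limit found 55 IDs, 18 of them shared, with 14 at the fishmeal level and medians of -0.34 on rapeseed and 0.11 on fishmeal. A 3-fold limit in strain A left 18 IDs, with 6 above, 8 below, 11 at the fishmeal level and medians of -0.94 and 0.59. From a mean level of 10 there were 165 IDs, with 76 above, 52 below, 52 at the rapeseed level, 61 at the fishmeal level and medians of -0.34 and 0.73. Without the upper limit on level 61 IDs were found, 30 of them below. By the rapeseed library alone, strain F lay above the midpoint in 26 on the deposited scale. Pseudocounts of 0.1 and 10 and keeping IDs listed at 0 moved none of these values past those bounds. Keeping IDs listed at 0 found the same 44 IDs, so its values could not move. The cause of the other shifts was not tested. No paired analysis was possible because each group has 1 library, and for the same reason none could be left out in turn. The shallow strain F fishmeal library limits every place on fishmeal.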
